A study of Mus musculus with 22 samples.

Results

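The genes described here encode the enzymes that build cholesterol and fatty acids and the proteins that control those enzymes. They comprise 30 genes, measured with 53 of the 30146 probes of a mouse whole-transcriptome panel. There are 17 enzymes of sterol synthesis, 4 regulators or carriers of sterols and 9 enzymes of fatty acid synthesis. A gene is described by its probe with the highest mean count, and 25 of the 30 such probes passed the filter on low counts. Those of Hsd17b7, Srebf1, Stard4, Acss2 and Scd1 did not pass over the whole series.

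RNA of whole pancreas from C57Bl/6 mice, collected on the day of birth, was counted by TempO-Seq, in which pairs of probes are ligated on a transcript and sequenced. Control dams were given corn oil under the skin, and the others TCDD, a dioxin and ligand of the aryl hydrocarbon receptor, at 20 ng/kg per day in 2 injections a week. Dosing ran from before mating to birth, so pups were exposed through their dam. By the labels, 4 dams of each treatment were used. Pups came as a male and a female from each of 3 control and 4 TCDD litters. The sources used here give no age for the dams.

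The stage labels went against stage genes in 8 of the 22 libraries. The libraries were therefore read in 2 classes, set by whether the summed count of Afp, a fetal plasma protein, lay above that of Pnlip, a lipase of mature acinar cells. In 14 newborn-type libraries Afp stood at 468 to 1487 counts-per-million (CPM) and Pnlip at 22.3 to 91.6 CPM, and in 8 adult-type libraries Afp stood at 0 to 1.25 and Pnlip at 40765 to 48925 CPM. The sex label conflicted with Y-linked transcripts in 10 libraries, and with both checks 13 of the 22 libraries went against a label. These transcripts stood at 64.3 CPM or more in 7 libraries, all of them newborn-type, and at 1.05 CPM or less in the others. Class and sex are thus partly mixed, and the part of sex in the class differences was not tested. A library is named below by its label, such as TCDD dam 8, which is not taken as a fact about the animal. The newborn type held 2 control dams, 2 TCDD dams, 6 control pups and 4 TCDD pups by label, and the adult type held 2 control dams, 2 TCDD dams and 4 TCDD pups. Acinar marker genes were abundant in every library, as their sums below show.

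Cholesterol is built from acetyl-CoA through mevalonate, isoprenoids and squalene, and fatty acids are built from the same precursor by a separate set of enzymes. Both sets are transcribed under the control of SREBP proteins, which are held in the endoplasmic reticulum by INSIG proteins when sterols are plentiful and released to the nucleus when they are scarce. Acinar cells of the pancreas hold a large endoplasmic reticulum for secretion, and fat cells among the pancreatic lobules make and store lipid.

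Promoters of 5 genes that ranked the adult-type libraries alike are shown because factors that work with SREBP bind short motifs near the start site. The sequences are the 250 bases before the start site, 5′ to 3′ on the gene's strand, from RefSeq on GRCm38.p6. Capitals mark CCAAT, or ATTGG where it lies on the other strand, CACGTG, and TCACNCCAC, a form of the sterol regulatory element. The stretches are chr5:28071162-28071411 (plus strand) for Insig1, chr9:42264301-42264550 (minus strand) for Sc5d, chr13:119690101-119690350 (plus strand) for Hmgcs1, chr13:8885356-8885605 (plus strand) for Idi1 and chr8:64733579-64733828 (minus strand) for Msmo1.
Insig1: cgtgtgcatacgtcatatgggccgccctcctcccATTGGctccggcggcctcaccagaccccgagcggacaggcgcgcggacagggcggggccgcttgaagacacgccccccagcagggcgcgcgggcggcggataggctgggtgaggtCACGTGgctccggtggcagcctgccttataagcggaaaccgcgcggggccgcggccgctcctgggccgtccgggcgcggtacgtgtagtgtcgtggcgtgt
Sc5d: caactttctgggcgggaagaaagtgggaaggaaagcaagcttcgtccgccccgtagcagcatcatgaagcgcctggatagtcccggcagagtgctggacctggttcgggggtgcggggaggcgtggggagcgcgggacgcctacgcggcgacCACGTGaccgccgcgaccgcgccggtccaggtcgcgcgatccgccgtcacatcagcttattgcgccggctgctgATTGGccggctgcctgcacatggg
Hmgcs1: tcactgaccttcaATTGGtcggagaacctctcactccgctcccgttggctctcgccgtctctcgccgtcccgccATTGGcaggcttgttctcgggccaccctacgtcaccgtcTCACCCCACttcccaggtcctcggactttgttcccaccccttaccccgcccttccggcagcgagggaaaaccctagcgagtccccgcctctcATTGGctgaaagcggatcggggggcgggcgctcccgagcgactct
Idi1: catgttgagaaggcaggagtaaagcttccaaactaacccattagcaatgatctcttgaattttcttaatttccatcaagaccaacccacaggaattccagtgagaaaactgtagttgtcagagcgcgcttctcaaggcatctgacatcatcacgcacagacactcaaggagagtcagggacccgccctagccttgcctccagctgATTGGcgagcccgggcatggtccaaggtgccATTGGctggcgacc
Msmo1: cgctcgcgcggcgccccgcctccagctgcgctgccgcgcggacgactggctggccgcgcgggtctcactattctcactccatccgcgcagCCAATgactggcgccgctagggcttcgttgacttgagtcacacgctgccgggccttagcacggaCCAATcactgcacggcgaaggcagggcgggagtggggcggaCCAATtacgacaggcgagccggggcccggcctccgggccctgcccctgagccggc

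Windows of 300 bases, 250 before and 50 after the start, were matched for 24 of the 30 genes (30 windows, since some genes have several starts), and both strands were searched. CCAAT, the letters read by NF-Y, was in a window of 22 of the 24 genes and in 23 of the 30 windows, against 37.4% of all 32851 windows of the table. Acaca and Elovl6 had none in these windows. GGGCGG, the letters read by Sp1, was in a window of 19 genes, against 35.7% of all windows. CACGTG was in windows of Dhcr7, Elovl5, Hsd17b7, Insig1 and Sc5d, against 7.15% of all windows. In the windows of Insig1 and Sc5d it began at positions -101 and -98, the start site being position 0. CACCCCAC and TCACNCCAC were found in Hmgcs1 alone, at overlapping letters, against 2.87% and 1.24% of all windows. A gene with several windows had more chances of a match, and a match describes letters and not binding.

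Levels are given on 2 scales, because a class difference depends on the scale. On total CPM a count is divided by all counts of its library, and in the adult type digestive enzymes such as Pnlip took a larger part of that total. On the scale called scaled CPM below, the total is multiplied by a factor from edgeR's trimmed mean of M-values (TMM), which was 1.22 to 1.87 in newborn-type and 0.355 to 0.575 in adult-type libraries. The median log2 ratio of adult to newborn type over 16760 probes was -0.06 on scaled CPM and -1.94 on total CPM, a shift of -1.88. Total counts were 11223816 to 34911410 per library. A floor of 3 counts was 0.0705 to 0.172 scaled CPM in newborn-type and 0.308 to 0.469 in adult-type libraries, which covers counting error only. Probes differ in efficiency, so levels of different genes are not compared. In bulk tissue, fewer cells of a type and less RNA per cell cannot be told apart.

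By ratios of class means the 30 genes as a group lay above the all-probe median in the adult type, and few of them separated the classes. The median log2 ratio of adult to newborn type over the 30 genes was 0.60 on scaled CPM and -1.37 on total CPM, against the all-probe medians of -0.06 and -1.94. The ratio was above 0 for 26 of 30 genes on scaled CPM and for 2 of 30, Insig1 and Scd1, on total CPM. The share of all probes above 0 was not counted. A few high libraries can raise a class mean. Genes such as Mvd, Me1 and Acaca were among the 26 though their adult-type median was below the newborn-type median, for Mvd 0.511 against 0.572 scaled CPM. Of the 53 probes 41 passed the filter, as all probes of the background did. On scaled CPM 3 of the 41 had every adult-type library above every newborn-type library, against 8.85% of all probes tested. With every one below there were 0 of 41, against 11.5%. On total CPM 0 of 41 were wholly higher, against 0.406%, and 14 of 41 wholly lower, against 68.0%. Member probes under the filter separated the classes on neither scale. The shares wholly lower were thus under the background on both scales, and the share wholly higher on scaled CPM was near it. The genes and the classes were chosen from these same libraries, so no test of this difference was made. Where 12 genes had at least 2 probes past the filter, the probes had ratios of the same sign in 11, and those of Elovl6 ran from -0.24 to 0.42 on scaled CPM.

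**Figure D1:**
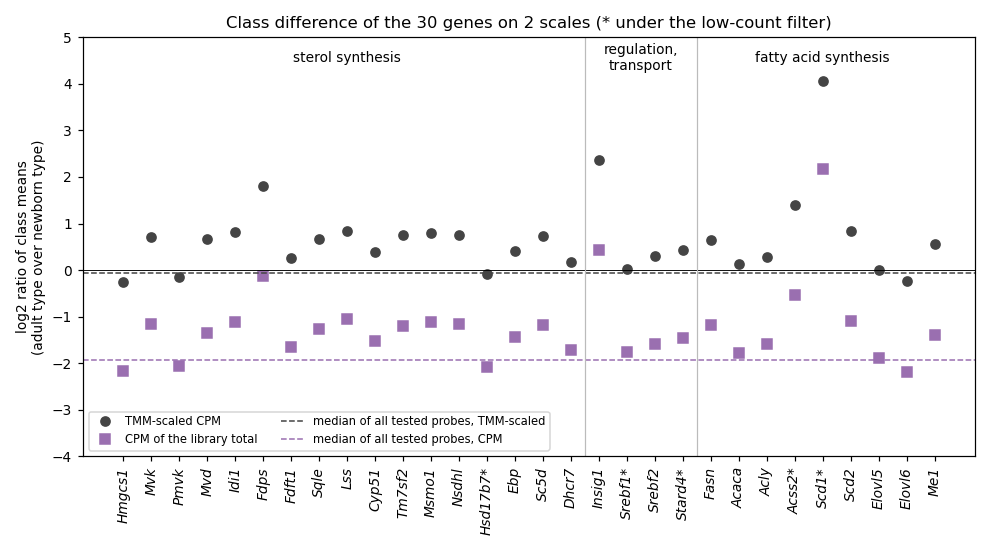
The log2 ratio of mean level, adult type (8 libraries) over newborn type (14 libraries), is plotted for each of the 30 genes on scaled CPM (circles) and total CPM (squares), with dashed lines at the medians of all tested probes. The squares sit about the same step below the circles for every gene, so Insig1 and Scd1 alone stay above 0 on both scales, and the median gene lies above the dashed line on each.

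Insig1, which holds the SREBP complex in the endoplasmic reticulum and is itself an SREBP target, had the largest ratio among the genes past the filter. Its lowest, median and highest levels were 6.35, 7.72 and 10.9 scaled CPM in the newborn type and 14.05, 35.7 and 81.8 in the adult type. The lowest adult-type library, TCDD female pup 6, stood above the highest newborn-type library. Means were 7.83 ± 1.37 (SD, n = 14) and 40.5 ± 20.9 (SD, n = 8), a log2 ratio of 2.37. On total CPM the ranges overlapped and the log2 ratio was 0.44, so Insig1 kept its direction on both scales. Srebf2, which encodes the SREBP that drives sterol genes, had overlapping ranges, 4.54 to 14.5 and 5.95 to 13.02 scaled CPM, with ratios of 0.29 on scaled and -1.59 on total CPM. Srebf1, the lipogenic SREBP, and Stard4, a sterol carrier, lay near the floor, with adult-type ranges of 0 to 1.33 and 0 to 0.940 scaled CPM.

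The first steps of sterol synthesis run from HMG-CoA to farnesyl diphosphate. Fdps, which makes farnesyl diphosphate, was the other gene whose classes did not overlap on scaled CPM, with both of its probes. Its lowest, median and highest levels were 4.24, 6.48 and 9.35 scaled CPM in the newborn type and 9.43, 19.7 and 39.5 in the adult type. The gap was narrow, since the lowest adult-type library, TCDD female pup 6, stood at 9.43 and the highest newborn-type library, control dam 4, at 9.35 scaled CPM. The log2 ratio was 1.80 on scaled CPM and reversed to -0.12 on total CPM. Idi1, the isopentenyl diphosphate isomerase, had lowest, median and highest levels of 13.2, 18.1 and 28.6 scaled CPM in the newborn type and 6.77, 26.8 and 58.3 in the adult type. Both the lowest and the highest Idi1 values of the series were thus adult-type. Hmgcs1, the HMG-CoA synthase, had a ratio of -0.26 on scaled and -2.17 on total CPM, below the all-probe median on each. Pmvk, the phosphomevalonate kinase, had ratios of -0.16 and -2.06. Mvk, the mevalonate kinase, and Mvd, the decarboxylase, were weak probes with overlapping ranges and ratios of 0.70 and 0.66 on scaled, -1.16 and -1.34 on total CPM.

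The later steps turn squalene into cholesterol. Fdft1, the squalene synthase, had nearly equal medians in the classes, with lowest, median and highest levels of 31.2, 36.4 and 39.4 scaled CPM in the newborn type and 26.9, 36.4 and 62.3 in the adult type. Sqle, the squalene epoxidase, stood at 10.6, 13.5 and 18.3 and 9.95, 20.6 and 35.5. Msmo1, a sterol C4 methyl oxidase, stood at 12.6, 18.9 and 25.8 and 11.1, 22.4 and 70.98. In all 3 genes the adult-type range enclosed the newborn-type range. Sc5d, a sterol desaturase, stood at 18.6, 24.97 and 35.3 scaled CPM in the newborn type and 25.5, 41.8 and 57.8 in the adult type, where the lowest library was just above the newborn-type median. Its ratio was 0.73 on scaled and -1.18 on total CPM. Ratios on scaled CPM were 0.84 for Lss, the lanosterol synthase, 0.40 for Cyp51, the lanosterol demethylase, 0.76 for Nsdhl, a sterol dehydrogenase, and 0.76 for Tm7sf2, a sterol reductase. They were 0.41 for Ebp, a sterol isomerase, and 0.17 for Dhcr7, the reductase of the last step. On total CPM these 6 ratios ran from -1.71 for Dhcr7 to -1.05 for Lss. Hsd17b7, a sterol ketoreductase, was near the floor, at 0 to 0.343 and 0 to 0.454 scaled CPM. Over the 17 sterol genes the median ratio was 0.67 on scaled and -1.27 on total CPM.

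**Figure D2:**
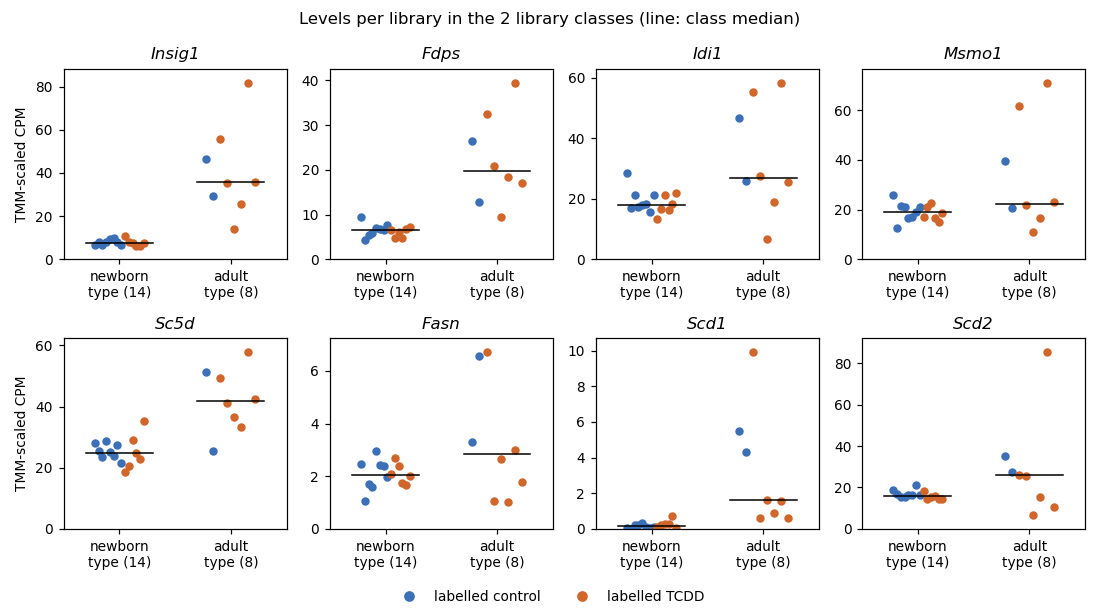
Scaled CPM of 8 genes is plotted per library, with 14 newborn-type and 8 adult-type libraries, blue for the control label, orange for the TCDD label and a line at the class median. Insig1 and Fdps do not overlap between the classes on this scale, though both overlap on total CPM and Fdps has its ratio reversed there, and the adult-type points spread more widely in each panel.

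None of the 9 fatty acid genes separated the classes on scaled CPM. Scd1, a stearoyl-CoA desaturase typical of fat and liver, stood at 0, 0.159 and 0.717 scaled CPM in the newborn type and 0.595, 1.60 and 9.91 in the adult type. Most newborn-type values were around the floor, so its ratio of 4.05 on scaled and 2.16 on total CPM rests on few counts. Scd2, a desaturase isoform known from neonatal tissues, stood at 14.3, 15.9 and 21.2 and 6.87, 25.9 and 85.3 scaled CPM, and the single library TCDD male pup 8 gave its highest value. Me1, the malic enzyme that supplies NADPH for lipid synthesis, stood at 9.09, 11.3 and 14.6 in the newborn type and 1.13, 8.75 and 73.8 in the adult type. Its adult-type range reached from far below to far above the newborn-type range. Fasn, the fatty acid synthase, stood at 1.06, 2.06 and 2.94 and 1.03, 2.82 and 6.71 scaled CPM. Acly, which makes cytosolic acetyl-CoA from citrate, stood at 34.5, 40.1 and 46.4 and 33.7, 49.3 and 63.7. Acaca, the acetyl-CoA carboxylase, stood at 8.47, 13.1 and 14.6 and 6.53, 12.1 and 27.9. Elongases gave ratios near the all-probe median, 0.01 for Elovl5 and -0.24 for Elovl6 on scaled and -1.88 and -2.18 on total CPM. Acss2, an acetyl-CoA synthetase, was near the floor at 0 to 0.486 and 0 to 1.85 scaled CPM. Over the 9 genes the median ratio was 0.55 on scaled and -1.40 on total CPM. On scaled CPM this middle value was the ratio of Me1, a ratio of class means that the highest library, at 73.8, raised. The Me1 median was lower in the adult type, 8.75 against 11.3 scaled CPM, so this summary does not show that fatty acid genes were generally higher there.

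Other genes of the pathway were read from 4 further lists. Over all probes tested the shares wholly higher and wholly lower, as above, were 8.85% and 11.5% on scaled CPM, and 0.406% and 68.0% on total CPM. Of 24 other synthesis enzymes, 19 of them past the filter, 2 were wholly higher and 2 wholly lower in the adult type on scaled CPM. On total CPM these numbers were 0 and 14, each near or below these shares. Fads1, a fatty acid desaturase, had ranges of 5.32 to 8.65 in the newborn type and 11.9 to 30.4 scaled CPM in the adult type, while Elovl2, an elongase of very long chains, had 5.38 to 14.7 and 0 to 0.626. Their log2 ratios were 1.43 and -5.24 on scaled CPM, and -0.49 and -7.10 on total CPM. Of 16 genes that process or regulate SREBP, 5 were wholly higher and 0 wholly lower on scaled CPM, and 0 and 11 on total CPM. They included Insig2, the second INSIG gene, with ratios of 0.996 on scaled and -0.89 on total CPM, and Mlx, a partner of the glucose sensor ChREBP, with 1.27 and -0.62. Of 21 genes of sterol uptake, transport and export, 16 passed the filter. On scaled CPM 2 were wholly higher and 5 wholly lower, and on total CPM 0 and 10. Apoe, a lipoprotein component, and Abca1, a cholesterol exporter, were wholly lower on both scales, with ratios of -2.11 and -1.57 on scaled CPM and -3.96 and -3.40 on total CPM. Of 14 glycerolipid genes, 12 of them past the filter, 0 separated on scaled CPM. On total CPM 7 were wholly lower, a smaller share than over all probes.

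Marker sums of other cells moved with the class as well. On scaled CPM acinar markers summed to 59950 to 120745 in the newborn type and 425209 to 699649 in the adult type. Mesenchymal markers summed to 969.6 to 1457 and 101 to 211, duct markers to 286 to 395 and 60.8 to 131, and hepatocyte and plasma protein markers to 500.3 to 1483 and 7.59 to 43.5. Adipocyte markers summed to 14.3 to 21.8 and 19.9 to 212. The part of cell composition in the class ratios was not tested.

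The adult-type libraries differed among themselves more than the newborn-type ones. The coefficient of variation (CV, SD over mean) was greater in the adult type in 28 of the 30 genes. Its median over the genes was 0.535 in the adult type and 0.225 in the newborn type, against 0.367 and 0.206 over all probes tested. The 2 sets are unlike, since only 25 of the 30 genes passed the low-count filter, as all probes of the background did. The share of all probes with a greater CV in the adult type was not counted. Most member probes had fewer counts in the adult type, so counting error differs between the classes too. Counting error alone would give Insig1 a CV of 0.0592 in the adult type, where 0.517 was measured. For Idi1 these values were 0.0655 and 0.552, and for Msmo1 0.0655 and 0.669.

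Several sterol genes ranked the adult-type libraries alike. The libraries labelled control dam 5, TCDD dam 8 and TCDD male pup 8 were the 3 highest for Hmgcs1, Pmvk, Idi1, Fdps, Fdft1, Sqle, Msmo1 and Sc5d. That is 8 of the 17 sterol genes, against 2.30% of all probes tested, and the same held for Insig1, Acly and Elovl6. This set of libraries was picked after the values had been seen, so the count is a description without a test. On total CPM it was 7 of 17, against 1.13%.

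In these 3 libraries, in the order just given, Idi1 stood at 46.6, 55.2 and 58.3 scaled CPM, and in the other 5 at 6.77 to 27.6. Msmo1 stood at 39.4, 61.6 and 70.98 scaled CPM, against 11.1 to 23.1. Fdft1 was nearly level across them, at 60.2, 62.3 and 61.5 scaled CPM, against 26.9 to 39.1 in the others. The step between the 3 libraries and the rest was thus wide in all 3 genes. Insig1 followed at 46.3, 55.8 and 81.8 scaled CPM, against 14.05 to 35.9. Sqle gave 24.5 to 35.5 scaled CPM in the 3 libraries and 9.95 to 22.6 in the others, and Pmvk 4.88 to 8.09 and 1.95 to 4.83, where the step was small. Srebf2 did not share the order, with 12.04 to 12.5 scaled CPM in the 3 libraries and 5.95 to 13.02 in the others. Nor did Lss, at 1.88 to 6.39 and 2.87 to 6.06, or Ebp, at 1.56 to 3.75 and 1.94 to 4.72.

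At the other end, the library labelled TCDD female pup 6 was alone the lowest of the adult type, ties not counted, for 11 of the 30 genes, against 16.6% of all probes tested. Its Idi1 level was 6.77 and its Insig1 level 14.05 scaled CPM. The 3 high libraries carry both treatment labels and both stage labels. Acinar marker sums were 529928, 617070 and 594721 scaled CPM in them, within the range of the 8. Islet markers there summed to 261, 332 and 259 scaled CPM, in the lower part of the adult-type range of 252 to 711. TCDD female pup 6 had the lowest islet sum of the 8, 252, and the lowest acinar sum, 425209. Adipocyte markers, at 56.01, 212 and 19.9, took both the highest and the lowest sum of the 8. The part of islet cells in this order was not tested.

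**Figure D3:**
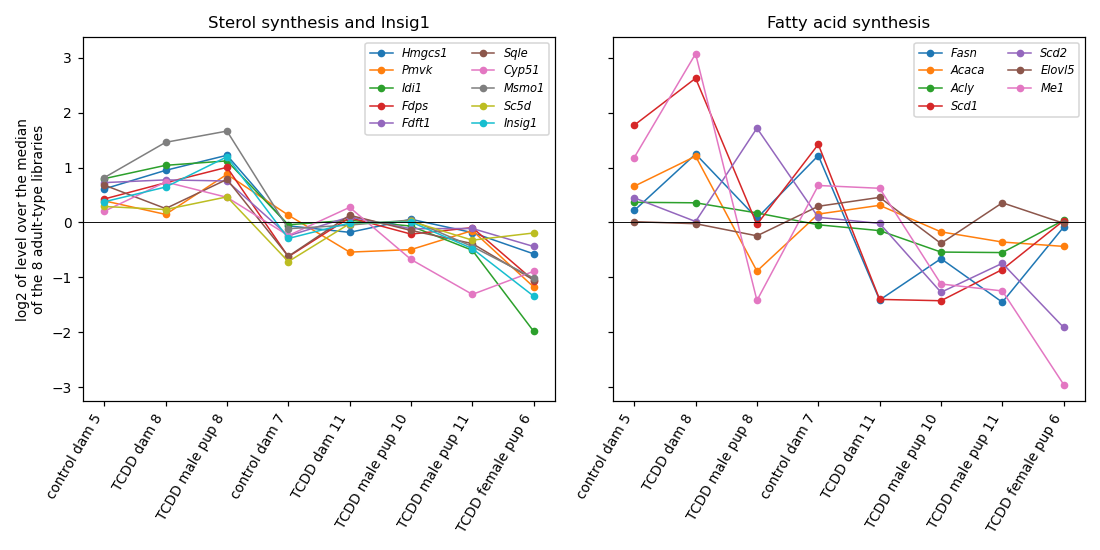
For each gene the log2 of scaled CPM over its median of the 8 adult-type libraries is plotted per library, named by its label, with lines joining the points of a gene. The 9 sterol genes drawn, picked after their values were seen, and Insig1 lie above their medians in the first 3 libraries and below in TCDD female pup 6. The 7 fatty acid genes drawn are mixed, with Scd1 and Me1 highest in TCDD dam 8 and Scd2 in TCDD male pup 8. Acly has the first 3 libraries as its highest. So does Elovl6, which like Acss2 is not drawn.

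Me1, and short of the threshold Acaca, differed by the stage label within the adult type. This was noticed in the values and then tested on them, so it is no independent evidence. The 4 pup-labelled libraries of the adult type all carry the TCDD label, and their stage label goes against their stage genes. Those of them labelled male also lacked the Y-linked transcripts, as all adult-type libraries did. Of the 4 dam-labelled ones 2 carry the control label, so stage and treatment labels are partly mixed here. Me1 stood at 19.9 in control dam 5, 13.96 in control dam 7, 73.8 in TCDD dam 8 and 13.5 scaled CPM in TCDD dam 11. In the 4 pup-labelled libraries it stood at 1.13 in TCDD female pup 6 and at 3.27, 4.02 and 3.68 scaled CPM in TCDD male pups 8, 10 and 11. Every dam-labelled library was above every pup-labelled one. Means were 30.3 ± 29.2 (SD, n = 4) and 3.02 ± 1.30 (SD, n = 4). By edgeR's quasi-likelihood test with Benjamini-Hochberg adjustment, Me1 was higher in the dam-labelled libraries by 3.34 ± 0.518 (SE) on the log2 scale (adjusted p = 0.0189). Adjusted p over the alternatives ran from 7.1e-36 without a low-count filter to 0.389 with limma-voom, and leaving out any 1 of the 4 pup-labelled libraries gave 0.0561 to 0.0899.

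Me1 was the 1 member called among 34 probes of these genes, against 0.128% of the 11707 probes tested, all 15 of them higher in the dam label. At an unadjusted p under 0.05 there were 4 of the 34, probes of Me1, Acaca, Scd1 and Elovl6, against 6.10% of all probes. Acaca also separated, at 13.4 to 27.9 scaled CPM in the dam-labelled and 6.53 to 10.7 in the pup-labelled libraries, with a log2 difference of 1.07 ± 0.246 that did not pass (adjusted p = 0.155 by edgeR). Scd1 had a difference of 2.06 ± 0.596 (adjusted p = 0.355 by edgeR) and overlapped, since TCDD dam 11 stood at 0.606 scaled CPM. Counting ranges on scaled CPM, 2 of 9 fatty acid genes and 0 of 17 sterol genes had the dam-labelled libraries wholly higher, against 2.08% of all probes, and 0 had them wholly lower, against 1.12%.

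Adipocyte markers divided by the same label. Their summed level was 56.01, 49.1, 212 and 80.9 scaled CPM in control dams 5 and 7 and TCDD dams 8 and 11. In the pup-labelled libraries it was 28.4 in TCDD female pup 6 and 19.9, 20.4 and 20.3 in TCDD male pups 8, 10 and 11. Of the 10 markers 5 were wholly higher in the dam-labelled libraries: Adipoq, Plin1, Cfd, Retn and Cidec. Adipoq, the fat cell hormone adiponectin, had 63, 69, 283 and 126 counts in control dams 5 and 7 and TCDD dams 8 and 11, and 0, 0, 0 and 2 counts in the pup-labelled libraries, the 2 counts being in TCDD male pup 10. Fabp4, which capillaries express too, was present in every library. In the newborn type Adipoq had 0 to 4 counts and Me1 stood at 9.09 to 14.6 scaled CPM. The part of fat cells in the adult-type difference was not tested.

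For Fasn, Acly, Scd1, Me1 and Elovl6 the relation to the adipocyte sum was computed within each class, 10 relations in all. In the newborn type that sum, at 14.3 to 21.8 scaled CPM, was mostly Fabp4, at 10.6 to 18.2. Since capillaries express Fabp4 too, the newborn-type relations cannot speak to fat cells. In the 14 newborn-type libraries Pearson's r was between -0.18 for Elovl6 and 0.45 for Me1. For Me1 the permutation p was 0.110 (adjusted p = 0.276), Spearman's rho was 0.46 (permutation p = 0.102, adjusted 0.446), and r was 0.50 without the 2 libraries farthest from the median. In the adult type the sums fell into 2 clusters of 4 libraries, the dam-labelled and the pup-labelled, so no coefficient pooled over them is given, and a relation within the clusters was not tested. Side by side, TCDD dam 8 had the highest adipocyte sum and the highest Me1, Scd1, Fasn and Acaca levels. It was the highest of the adult type for 10 of the 30 genes, 5 of them sterol genes, against 12.7% of all probes tested. TCDD dam 11 had the next highest sum, with Fasn at 1.06 and Scd1 at 0.606 scaled CPM, among the lowest of the 8.

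**Figure D4:**
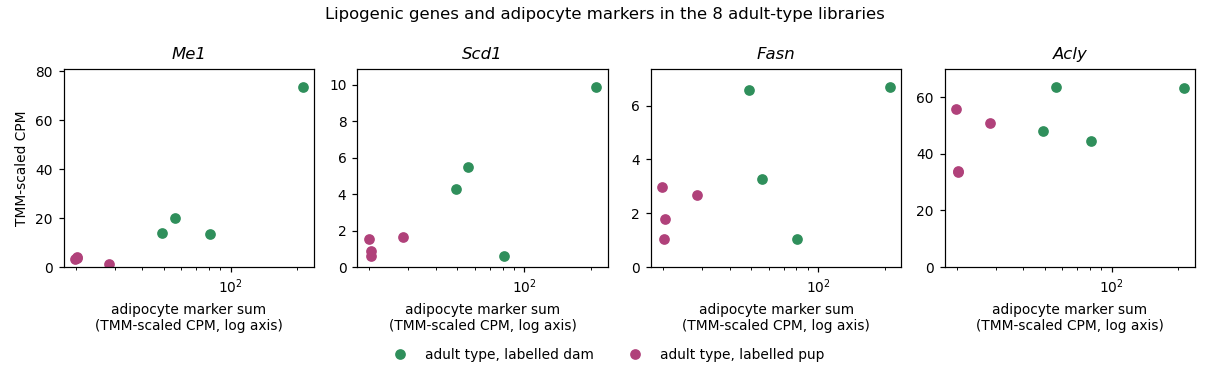
Scaled CPM of Me1, Scd1, Fasn and Acly is plotted against the summed adipocyte marker level (log axis) in the 8 adult-type libraries, green for the dam label and magenta for the pup label. Me1 is at 13.5 to 73.8 in the dam-labelled and 1.13 to 4.02 in the pup-labelled libraries, whereas Scd1, Fasn and Acly overlap between the labels.

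Within the newborn type the genes varied unequally, with the median CV of 0.225 given above, against 0.206 over all probes tested. Among the genes past the filter the lowest CVs were 0.0721 for Fdft1, 0.0920 for Acly and 0.117 for Scd2, against 0.0333, 0.0316 and 0.0496 from counting error. The highest were 0.592 for Tm7sf2, 0.424 for Mvk and 0.337 for Dhcr7, against 0.259, 0.197 and 0.166, and Hmgcs1 had 0.257 against 0.0618. The library labelled control dam 4 was the highest of the 14 for Hmgcs1, Idi1, Fdps, Lss, Msmo1, Nsdhl and Srebf2, 7 of the 30 genes, against 7.17% of all probes tested. Its Idi1 level was 28.6 scaled CPM and its Srebf2 level 14.5, while its Insig1 level of 6.60 was in the lower part of the range of 6.35 to 10.9. This library also had the most reads of the series, 34911410, and the highest acinar marker sum of the newborn type, 120745 scaled CPM. The part of depth and of acinar RNA in its levels was not tested.

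The study compared TCDD with corn oil, and no cholesterol or fatty acid gene passed the test for the treatment label within either class. In the newborn type, with 8 control-labelled and 6 TCDD-labelled libraries, edgeR called 0 of 41 member probes and 0 of 17109 probes in all, and DESeq2 and limma-voom also called 0. At an unadjusted p under 0.05 there was 1 of the 41, against 3.24% of all probes. That was Cyp51, with a log2 fold change of 0.34 ± 0.148 (SE). The median member log2 fold change was -0.0042 with a median SE of 0.179. The log2 fold change in this class was 0.00498 ± 0.131 (SE) for Insig1, -0.15 ± 0.149 for Fdps, -0.13 ± 0.129 for Idi1 and -0.01 ± 0.113 for Me1, and none of these passed. Lowest, median and highest Insig1 levels were 6.60, 7.81 and 9.80 scaled CPM with the control label and 6.35, 7.54 and 10.9 with the TCDD label.

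In the adult type 2 control-labelled libraries stood against 6, and precision was lower. EdgeR called 0 of 37 member probes and 0 of 13513 in all, DESeq2 and limma-voom called 0, and 0 of the 37 had an unadjusted p under 0.05, against 2.87% of all probes. The median member SE was 0.487. Insig1 stood at 46.3 and 29.1 scaled CPM with the control label and at 14.05, 35.7 and 81.8 (lowest, median, highest) with the TCDD label. The control-labelled values lay inside the TCDD-labelled range. Its log2 fold change was 0.12 ± 0.454 (SE), and that of Fasn was -0.90 ± 0.587. Both classes fitted together, with class as a term, gave 0 of 47 member probes called by edgeR (0 by DESeq2), with 2 of the 47, probes of Idi1 and Mvd, at an unadjusted p under 0.05 against 2.18% of all probes. The difference of the label effect between classes gave 0 of 47 called by edgeR and by DESeq2, with 1, a probe of Tm7sf2, at an unadjusted p under 0.05 against 7.93%. Whether the treatment labels hold in libraries whose stage or sex label does not was not tested.

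**Figure D5:**
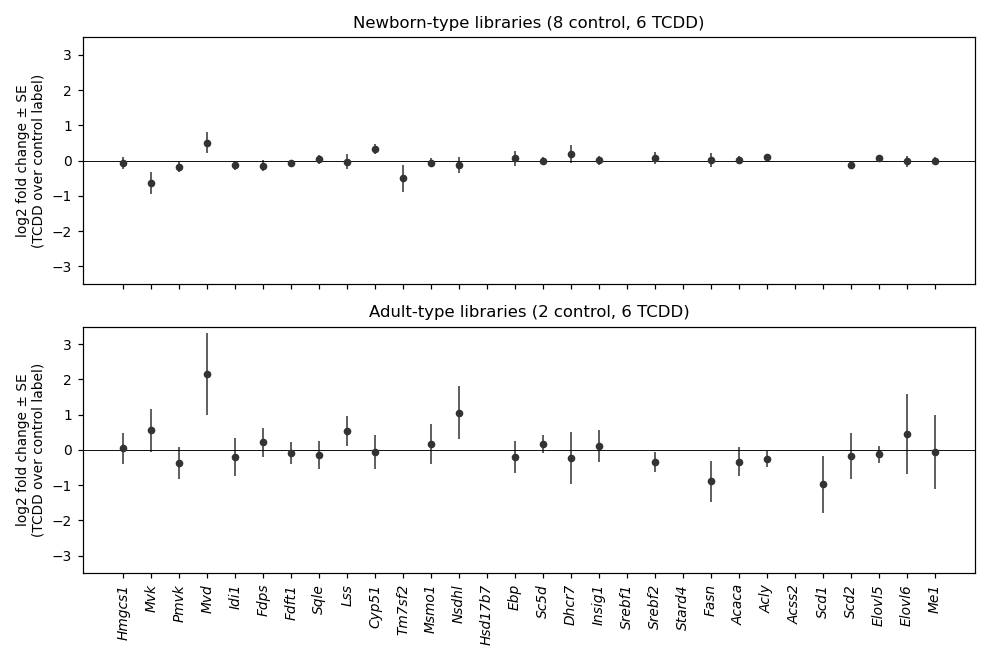
Log2 fold change, TCDD label over control label, from edgeR is plotted with its standard error for each gene whose probe passed the filter, in the newborn type (upper panel) and the adult type (lower panel). No gene passed the adjusted threshold in either panel, and the bars are wider in the adult type.

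Comparisons by the labels as they stand gave 0 member probes called by edgeR in dams (37 tested), female pups (42 tested) and male pups (40 tested). Those at an unadjusted p under 0.05 numbered 0 in dams, against 0.962% of all probes, 0 in female pups, against 1.71%, and 7 in male pups, against 16.7%. DESeq2 called 0 in dams and female pups and 2 in male pups, Fdps and Insig1, with 2.57% of all probes called higher and 0.600% lower. Limma-voom called 0 in each. The TCDD-labelled male pups hold 3 adult-type libraries and 1 newborn-type library, TCDD male pup 6, and the 3 control-labelled male pups are all newborn-type. Without TCDD male pup 6 edgeR called 11 member probes, in a fit that called 18.6% of all probes higher and 23.3% lower. In that fit class and treatment label cannot be told apart, and the genes called, led by Insig1 with a log2 fold change of 2.55, include Fdps, Sc5d, Sqle, Idi1 and, lower in the TCDD label, Me1 with -1.71.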

How the data were processed

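Per the labels and the file header, the deposited values are unnormalized read counts of each probe in 22 pancreas libraries. Libraries were made with TempO-Seq and sequenced on a NextSeq 500, per the labels' protocols, and the submitters' processing notes name bcl2fastq 2.17.1.14. The sources used here give no aligner and no genome build for the counts. Without molecular identifiers a count is a read and not a molecule.

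The members, the gene lists and the library classes were chosen with earlier results of these data known. All 30 genes may be named, each by its probe with the highest mean count. Of each further list up to 4 genes may be named, those with the largest class ratio among genes that separate the classes and reach a mean of 1 CPM in the higher class. Tests used edgeR 4.0.16 in R 4.3.3 (filterByExpr, TMM, glmQLFit, glmQLFTest, Benjamini-Hochberg adjustment over all probes tested, threshold 0.05), checked on simulated counts. Alternatives were DESeq2 1.42.0, limma-voom (limma 3.58.1), other scalings, no filter, a litter block and leaving out each library. Numbers in the labels tie dams to litters, and replicates are separate animals. Correlations used 100000 permutations, or all of them in the adult type. Promoter windows came from RefSeq (GRCm38.p6).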

Additional observations from a re-analysis of the deposited data

Results flagged for a closer look

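In groups of 4 to 10 libraries, the gap between the highest or lowest library and its nearest neighbour was set against the range of the group (Dixon's test), for 210 checks of a gene in a group. A total of 31 checks were past the 95% critical value, where chance gives about 1 in 20 if values are normally distributed. The share among all probes was not counted, so the number does not show an excess in these genes. Groups overlap, since each library was checked both within its class and treatment label and within its labelled group, and where a labelled group mixes the classes a class difference gives a gap. Values are scaled CPM.

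The library labelled TCDD dam 8 stood apart upward most often. Among the TCDD-labelled adult-type libraries it had 73.8 for Me1 (others 1.13 to 13.5), 9.91 for Scd1 (others 0.595 to 1.64) and 6.71 for Fasn (others 1.03 to 2.98). Among TCDD dams by label it stood apart with the same Me1 and Scd1 values, and with 2.90 for Mvk, 62.3 for Fdft1, 61.6 for Msmo1 and 63.3 for Acly. It also had the highest adipocyte marker sum.

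The library labelled TCDD male pup 8 had 85.3 for Scd2 among the TCDD-labelled adult-type libraries (others 6.87 to 26.2), and the same value stood apart among TCDD male pups. Tm7sf2 was at 2.98 in it (others 0.606 to 1.19). Among TCDD male pups it also stood apart with 58.3 for Idi1, 61.5 for Fdft1, 70.98 for Msmo1 and 1.85 for Acss2, the last with 0 in the other 3. In that group TCDD male pup 6, the newborn-type library, had 9.09 for Me1 (others 3.27 to 4.02). Dhcr7 was at 4.02 in TCDD male pup 10 (others 0.442 to 1.52).

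The library labelled TCDD female pup 6, the 1 adult-type library among TCDD female pups, stood apart there with 14.05 for Insig1 (others 6.35 to 7.46), 1.33 for Srebf1, 6.87 for Scd2 (others 14.3 to 15.7) and 0.205 for Mvd. Among control dams by label, control dam 5 had 33.01 for Sqle (others 11.7 to 14.6) and 51.2 for Sc5d (others 25.5 to 27.9), and control dam 7 had 0.805 for Elovl6 (others 2.49 to 2.55).

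In the newborn type with the control label, control dam 4 had 28.6 for Idi1 (others 15.7 to 21.3) and 14.5 for Srebf2 (others 4.54 to 9.07). Control dam 2 had 3.47 for Pmvk (others 4.90 to 6.10), and control female pup 2 had 4.68 for Cyp51 (others 2.45 to 3.29). With the TCDD label, TCDD female pup 10 had 0.717 for Scd1 (others 0.0419 to 0.265, around the floor) and TCDD dam 10 had 18.3 for Scd2 (others 14.3 to 15.7).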

How the results depend on the processing

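Scaling decided the class comparison. Of the 41 member probes past the filter, 3 did not overlap between the classes on scaled CPM, all higher in the adult type. On total CPM they numbered 14, all lower. Without the 20 most abundant probes in the total they numbered 8, all lower, against 50.9% of all probes. With libraries whose stage label matches their class they numbered 5, all higher, against 13.1%, from fewer samples. The log2 ratio of Fdps reversed from 1.80 to -0.12 on total CPM. The 3 shared highest adult-type libraries held for 7 to 8 of the 17 sterol genes over 4 alternatives chosen after seeing the data. Of 10 relations with adipocyte markers on scaled CPM, 0 passed on Spearman's rho and 1 on Pearson's r. That was Me1 in the adult type, pooled over its 2 clusters (adjusted permutation p = 0.0451, and 0.279 on rho). Since the clusters are the dam and pup labels, this cannot be told apart from the label difference of Me1 given above and adds no evidence to it. On total CPM 1 passed on rho and 2 on r, and with Adipoq alone as marker 0 and 0.

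For the treatment label in male pups, DESeq2 called 2 member probes and 513 of all probes against 0 and 0 by edgeR. Leaving out 1 library at a time gave 0 to 11 member probes, and 6451 of all probes without TCDD male pup 6. In the other treatment label fits 0 member probes were called under every alternative run. All-probe counts rose from 0 to 112 in the adult type without a filter, to 2 there without control dam 5, and to 23 by DESeq2 and 9 without a filter for the difference between classes.

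The dam and pup label comparison in the adult type, added after seeing the data, called 1 member probe and 15 probes in all by edgeR. DESeq2 called 2 and 33, no filter 5 and 303, limma-voom 0 and 0, and leaving out 1 library 0 to 2 and 2 to 87. With the TCDD-labelled libraries alone it called 1 and 58. With litter as a block in limma-voom it called 0, as limma-voom did without the block, at a litter correlation of 0.0993. The litter block left 0 member calls in the treatment label fits of the newborn type, the adult type and both classes, where the correlation was 0.0111 to 0.0706. Except where stated, the cause was not tested. The adult type has 2 control-labelled libraries and fewer counts per member probe than the newborn type, which limits the treatment comparison there.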
